A study of Mus musculus with 9 samples.

Results

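RefSeq's curated noncoding transcripts are RNAs without a protein product whose records have an accession that begins with NR_. On an array that carries long noncoding RNA and mRNA probes, 873 of 97836 probes named such a record. Probes were left out by gene symbol where they belonged to small nucleolar RNA host genes, microRNA host genes, opposite-strand transcripts, named pseudogenes or the imprinted RNAs Meg3, Rian, Mirg, Airn, Kcnq1ot1, Peg13, H19 and Nespas, 117 in all. That left 756 probes, of which 725 carried a name and stood for 694 genes. A further 31 could not be named, so that the symbol rule could not be applied to them. The probes described here are the 392 whose spots the extraction software marked as well above background on at least 3 of 9 arrays. They comprise 371 named probes for 358 genes and 21 without a name.

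Each array held liver RNA pooled from 4 wild-type male mice of the inbred strain C57BL/6J, and each group had 3 such pools. Control mice ate chow for 17 weeks. The high fat diet group ate a diet with 45% of its energy from fat for the same time and received saline by gavage over the last 5 weeks. The metformin group ate that diet for as long and received metformin, a glucose-lowering drug, at 3 mg/kg per day by gavage over those 5 weeks. No saline gavage is described for the controls, and no group received metformin on chow. All mice were 20 weeks old at collection. A pool averages its mice, so the spread between pools understates the spread between animals.

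Long noncoding RNAs are transcribed and often spliced like mRNAs. Many stay in the nucleus, some act on the gene next to them, some carry microRNAs within their introns or exons, and many have no known role. Transcribed pseudogenes are RNAs from degenerate copies of coding genes, and a probe for them can also bind the parent's mRNA. In liver, a few noncoding RNAs have been tied to glucose production, to lipid handling and to the activity of the immune and stellate cells that sit beside the hepatocytes.

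Promoters are shown for 4 transcripts that the results below return to, and they differ in how many CG pairs they hold around the start. Each spans 250 bases before to 50 after the RefSeq start on GRCm38.p6, reads along the minus strand from 5′ to 3′, and has its CG pairs in capitals. Chaserr lies at chr7:73558346-73558645, Kis2 at chrX:52744544-52744843, Morrbid at chr2:128429302-128429601 and 0610005C13Rik at chr7:45575127-45575426.
Chaserr: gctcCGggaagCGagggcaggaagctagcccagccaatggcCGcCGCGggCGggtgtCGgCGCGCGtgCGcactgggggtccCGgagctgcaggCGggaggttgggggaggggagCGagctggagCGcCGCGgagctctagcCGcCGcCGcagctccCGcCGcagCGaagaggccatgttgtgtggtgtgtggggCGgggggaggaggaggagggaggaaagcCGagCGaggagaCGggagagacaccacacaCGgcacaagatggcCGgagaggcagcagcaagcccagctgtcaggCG
Kis2: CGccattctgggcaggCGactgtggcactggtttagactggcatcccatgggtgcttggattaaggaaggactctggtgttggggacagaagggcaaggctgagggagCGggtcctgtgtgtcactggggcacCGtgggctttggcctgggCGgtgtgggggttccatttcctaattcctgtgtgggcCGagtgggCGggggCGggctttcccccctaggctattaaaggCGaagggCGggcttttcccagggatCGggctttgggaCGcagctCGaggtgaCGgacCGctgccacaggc
Morrbid: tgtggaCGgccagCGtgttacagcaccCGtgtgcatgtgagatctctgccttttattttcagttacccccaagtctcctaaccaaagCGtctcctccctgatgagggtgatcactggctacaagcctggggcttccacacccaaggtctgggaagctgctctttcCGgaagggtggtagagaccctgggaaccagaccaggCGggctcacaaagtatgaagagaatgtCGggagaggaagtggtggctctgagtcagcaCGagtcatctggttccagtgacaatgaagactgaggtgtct
0610005C13Rik: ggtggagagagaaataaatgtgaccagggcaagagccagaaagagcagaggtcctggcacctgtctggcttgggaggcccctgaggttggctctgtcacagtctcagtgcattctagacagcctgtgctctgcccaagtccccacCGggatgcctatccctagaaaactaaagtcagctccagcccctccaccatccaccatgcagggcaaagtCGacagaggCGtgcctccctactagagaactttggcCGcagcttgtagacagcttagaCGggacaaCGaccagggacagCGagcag
The Chaserr window held 30 CG pairs, that of Kis2 15, that of Morrbid 8 and that of 0610005C13Rik 7. Both strands were searched for short motifs. The CCAAT box was found in the Chaserr window alone of these 4, and 37.9% of all 27025 promoters of the table hold it. The TATA motif, spelled TATAAA (14.2% of all promoters), was in none of the 4 windows. Nor was the E-box CACGTG (7.24% of all promoters), nor the cyclic AMP response element TGACGTCA (1.88%).

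A mature microRNA of each hairpin that lies just downstream of Kis2, on its strand, is shown. Some of those shown have the same seed, bases 2 to 8, given in capitals. All 6 of their hairpins lie within 796 bp of the end of Kis2 in the GRCm38.p6 table.
miR-106a-5p: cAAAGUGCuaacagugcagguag
miR-20b-5p: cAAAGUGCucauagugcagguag
miR-18b-5p: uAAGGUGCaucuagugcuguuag
miR-19b-3p: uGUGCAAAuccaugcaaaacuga
miR-92a-3p: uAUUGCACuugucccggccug
miR-363-3p: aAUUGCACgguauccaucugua
Both miR-106a-5p and miR-20b-5p carry the seed AAAGUGC, and miR-92a-3p and miR-363-3p share AUUGCAC. Sequences are those of RefSeq. The array's probe for Kis2 reads the long transcript and not these small RNAs.

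Of the 756 probes, 280 were above background on all 9 arrays, 112 on 3 to 8, 50 on a single array and 298 on none. At the edge of the rule, the 16 probes above background on 2 arrays had levels of -4.42 to -3.14 (median -3.71), and the 17 on 3 arrays had -4.25 to -2.92 (median -3.28). A level is the log2 processed signal minus the array's 75th percentile, and levels of different probes cannot be set against each other. Among the genes that RefSeq classes as long noncoding RNA, 274 of 552 were above background (49.6%). Of transcribed pseudogenes it was 58 of 101 (57.4%), and of coding genes with a noncoding variant 23 of 35 (65.7%).

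Genes above background were set beside the others by their place in the genome, as a description without a test. Loci that overlap a coding gene made up 41.9% of the 358 genes above background and 33.3% of the 336 that were not. A coding gene that starts within 1000 bp on the other strand, running the opposite way, was found for 65 of 245 genes above background with a promoter in the table (26.5%) and for 36 of 228 others (15.8%). A CG-rich promoter, with an observed to expected CG ratio above 0.6 and a GC content above 50%, was found for 91 of the 245 (37.1%), for 49 of the 228 (21.5%) and for 33.9% of all genes of the table. The median promoter held 10 CG pairs in the first set and 5 in the second. Promoters were matched for 473 of 694 genes.

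**Figure D1:**
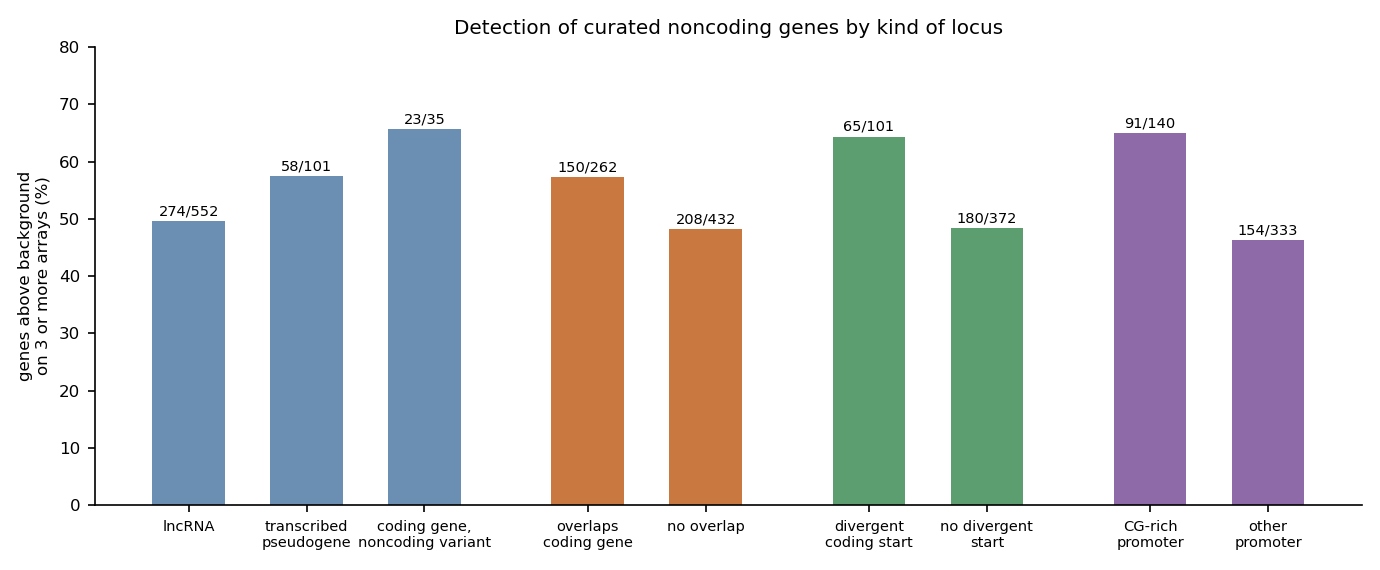
Share of curated noncoding genes above background on at least 3 of 9 arrays (bars, in percent, with genes above background over genes with a probe on top), by RefSeq class, overlap with a coding gene, a coding start within 1000 bp on the other strand, and CG content of the promoter. Such starts are labelled divergent, also where they face each other. The bars for these starts (64.4%) and CG-rich promoters (65.0%) stand above those of the other loci (48.4% and 46.2%).

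Facts of the arrays bear on what follows. Between 299 (metformin replicate 2) and 384 (control replicate 3) of the 392 probes were above background on an array. Array slides, read from the file headers, were only partly crossed with the groups. All 3 controls shared slide 1 with the pool of high fat diet replicate 1. Slide 2 carried 2 pools each of the high fat diet (replicates 2 and 3) and of metformin (replicates 1 and 2), and metformin replicate 3 was on slide 3. The first principal component of the 392 probes (30.1% of the variance) placed all slide 1 arrays at -5.43 to -2.02 and all others at 2.13 to 4.80, so that slide moved with diet and drug, and its part in the results was not tested apart from the values given below. Control replicate 1 stood apart on the second component (20.3% of the variance), at 7.69 against -3.11 to 1.71. Across the array 600 probes were more than 2 log2 units above the median of the other arrays in control replicate 1, but just 1 of the 392. The tissue label could be checked with 2 of 8 hepatocyte markers, Hnf4aos and 0610005C13Rik, both above background on all 9 arrays. Of the listed markers of macrophages, endothelial cells, cholangiocytes, lymphocytes, adipocytes, erythroid cells and acinar cells, none had a named probe, and of 5 muscle markers the 2 with one were Mir133a-1hg, above background on all 9 arrays, and Mir1a-1hg, on 4.

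**Figure D2:**
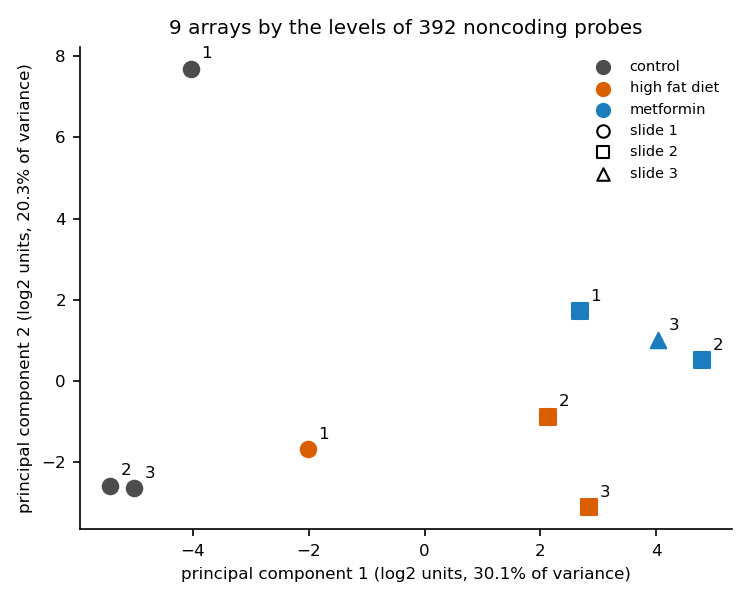
The 9 arrays by principal components 1 and 2 of the 392 probes (log2 units), coloured by group, shaped by slide and numbered by replicate. The 4 arrays of slide 1 lie at negative values of the horizontal axis, and control replicate 1 lies alone at 7.69 on the vertical axis.

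Metformin on the high fat diet was set against chow control to see what diet and drug did together. It gave the only calls, 3 higher and 0 lower of 392 probes (0.765%; limma, Benjamini-Hochberg over 62036 probes at 0.05), where 339 of all probes tested were called (0.546%; 0.237% higher and 0.309% lower). They were Chaserr, 2610005L07Rik and a probe for the record NR_027806.1, which could not be named. Groups did not overlap for 95 of the 392 probes (24.2%), beside 24.9% of all probes. Of these 50 were higher and 45 lower, beside 12.5% of all probes each way. Without adjustment, 76 had a p under 0.05 (19.4%), 35 higher and 41 lower, beside 19.1% of all probes (8.65% higher and 10.4% lower). Over all 392 probes 193 were higher and 199 lower, with a median change of -0.01, beside -0.01 over all probes.

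Chaserr is a noncoding RNA known to hold down the chromatin remodeller gene Chd2, whose locus it overlaps in the table used. Its levels were -3.86, -4.00 and -3.82 in the controls, -3.15, -2.99 and -2.53 in the high fat diet pools, and -2.08, -2.25 and -2.66 in the metformin pools. It was above background in none of the controls, 2 of 3 high fat diet pools and all 3 metformin pools, and every metformin pool lay above every control. It rose by 1.56 from control to metformin (SE 0.20, limma adjusted p = 0.0238), and by 0.55 with normexp background correction (adjusted p = 0.0291), so that its size depends on how the background is treated. The probe entered the test through the groups where it was high, and with no filter on dim probes its adjusted p was 0.0469. With control replicate 2 left out its adjusted p was 0.0897, with control replicate 3 left out 0.0536, and with metformin replicates 1, 2 or 3 left out 0.059, 0.0801 and 0.0732, and 0.00273 to 0.958 over all alternatives.

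The transcript 2610005L07Rik, classed as a transcribed pseudogene, was at 4.01, 4.10 and 3.99 in the controls, at 4.23, 4.23 and 4.62 on the high fat diet, and at 4.78, 4.91 and 5.20 with metformin. The 3 groups stood in that order without overlap. It rose by 0.93 from control to metformin (SE 0.17, limma adjusted p = 0.0479). The call was lost without control replicates 2 or 3, high fat diet replicate 2 or any metformin replicate, with adjusted p-values of 0.116, 0.0941, 0.0615, 0.0803, 0.12 and 0.178 in that order, and the range over all alternatives was 0.00651 to 1.

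The unnamed record NR_027806.1 was at -2.84, -2.86 and -2.89 in the controls, at -2.49, -2.51 and -2.63 on the high fat diet and at -2.06, -1.94 and -2.21 with metformin, also in 3 separate steps. It was above background in 2 of 3 controls and in all 3 pools of each other group. It rose by 0.79 (SE 0.13, limma adjusted p = 0.0402), and by 0.40 with normexp (adjusted p = 0.0669). Without control replicates 2 or 3, high fat diet replicate 2 or any metformin replicate its adjusted p was 0.111, 0.0784, 0.0594, 0.0899, 0.12 and 0.134 in that order (0.00602 to 1 over all alternatives).

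Slide 1 alone holds controls, and no metformin pool shares it. A fit with slide as a block links slides 1 and 2 through the high fat diet pools, with replicate 1 alone on the controls' slide. Metformin replicate 3, alone on slide 3, adds nothing to its differences. There Chaserr was at 1.33 (limma adjusted p = 0.958), 2610005L07Rik at 0.61 and NR_027806.1 at 0.94 (both adjusted p = 1). In that fit limma called 0 of all probes, with 2644 at an unadjusted p under 0.05. With no filter on dim probes the adjusted p was 0.0876 for 2610005L07Rik and 0.0848 for NR_027806.1, with quantile normalization it was 0.0506 for the former, and with only the 6 arrays compared it was 0.0529 for the latter. Over all 392 probes the count called was 20 without control replicate 1, 0 without control replicates 2 or 3 or any metformin replicate, and 6, 1 and 4 without high fat diet replicates 1, 2 and 3. Of all 62036 probes, 2711, 7 and 89 were called without control replicates 1, 2 and 3. It was 77, 48 and 2 without metformin replicates 1, 2 and 3, and 678, 187 and 584 without those of the high fat diet.

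Next to these calls stood Kis2, the X-linked transcript upstream of the microRNAs shown above. It was at 4.23, 4.51 and 4.36 in the controls, at 4.53, 4.61 and 5.18 on the high fat diet and at 5.24, 5.28 and 5.57 with metformin. All metformin pools lay above all others, but the difference from control of 1.00 (SE 0.19) missed the threshold (limma adjusted p = 0.0561, and 0.00719 to 1 over its alternatives), and it was 0.53 with slide as a fixed block. 1700028E10Rik, which lies within Stard13 on the other strand, was at -2.54, -2.10 and -1.82 in the controls against -1.36, -1.07 and -0.39 with metformin. That difference of 1.21 (SE 0.30) had an adjusted p of 0.0861, and its other probe was at 0.06.

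Among lower transcripts, none passed. Mirt2, a noncoding RNA known from the infarcted heart and as a brake on macrophage inflammation, was at -2.19, -1.90 and -1.21 in the controls, at -2.21, -1.67 and -2.31 on the high fat diet and at -3.21, -2.88 and -3.80 with metformin. Its metformin pools lay below all others, and 1 of them was above background. The difference from control was -1.53 (SE 0.31, limma adjusted p = 0.058, and 0.0346 without control replicate 1, with 0.0107 to 1 over its alternatives), and -0.55 with normexp. Gm38426, which overlaps the kinase gene Mast1 on the other strand, was at 0.48, 0.78 and 0.88 in the controls and at 0.05, -0.16 and 0.06 with metformin, a difference of -0.73 (SE 0.16, adjusted p = 0.0663). A probe for a noncoding variant of Vmn2r29, a pheromone receptor gene, was at -1.05, -2.98 and -2.47 in the controls and above background in no metformin pool, at least 3.36-fold lower (adjusted p = 0.0769). Such a bound sets an array at its lowest level well above background unless the probe itself read higher. Control replicate 1 was the highest of its 9 values, and without it the difference went from -1.97 to -1.41 (adjusted p = 0.0555, range 0.0134 to 1).

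**Figure D3:**
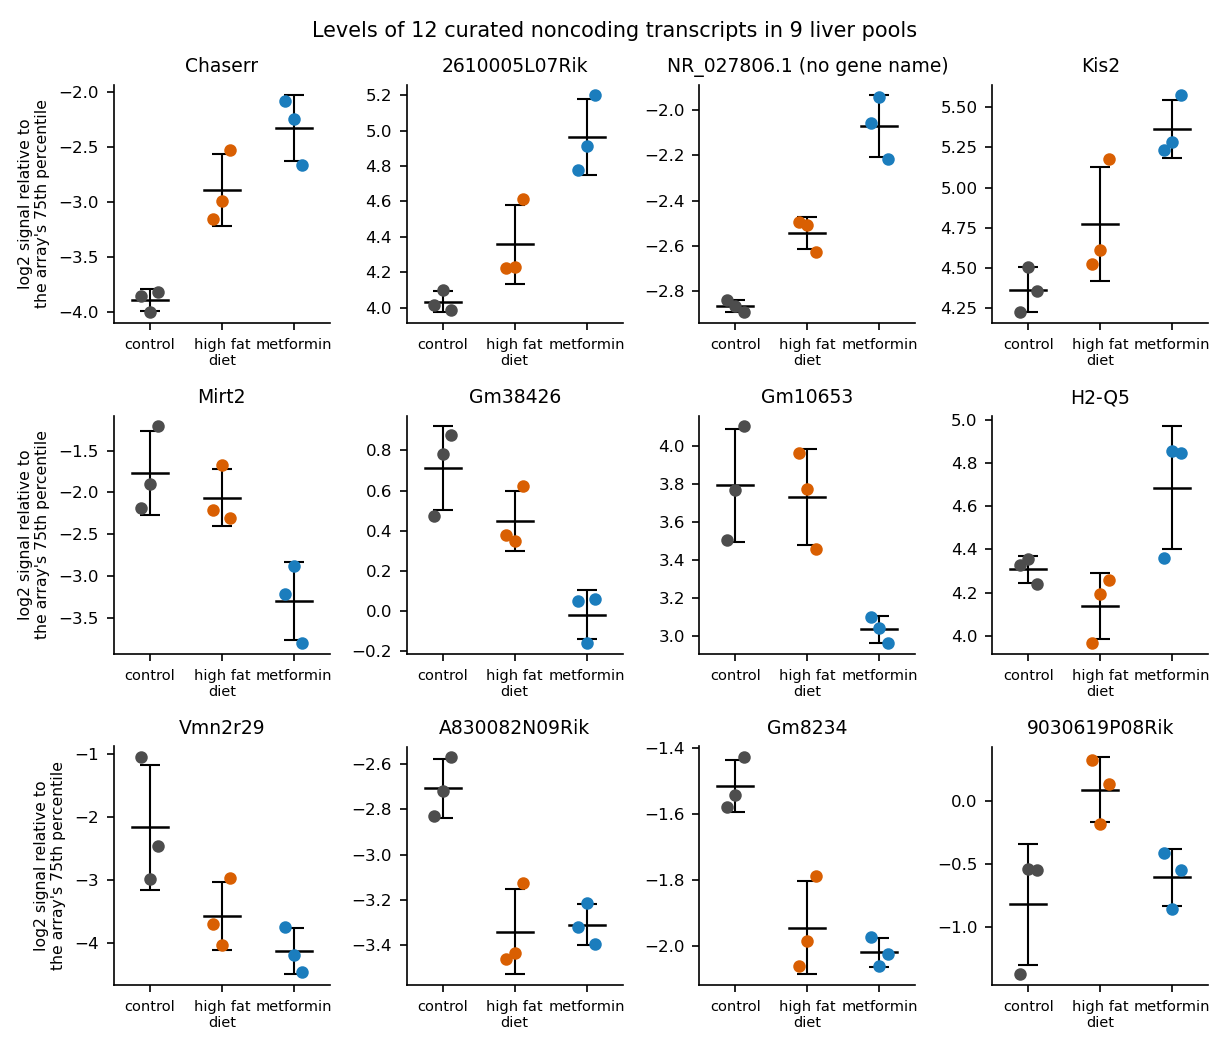
Levels of 12 transcripts in each pool (vertical axis, log2 processed signal minus the 75th percentile of its array; points, with the group mean as a line and the SD as bars, n = 3), on a vertical axis of its own in each panel. Chaserr, 2610005L07Rik, NR_027806.1 and Kis2 are higher in all 3 metformin pools than in all 3 controls, and Mirt2, Gm38426, Gm10653 and Vmn2r29 are lower.

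The high fat diet with saline was compared with chow to see the response to the diet. Limma called 0 of the 392 probes, beside 28 of all 62036 (0.0451%; 0.0129% higher and 0.0322% lower). Without adjustment, 54 had a p under 0.05 (13.8%), 28 higher and 26 lower, beside 12.1% of all probes (4.88% higher and 7.2% lower). The groups did not overlap for 57 (14.5%), 33 higher and 24 lower, beside 15.4% (7.27% higher and 8.13% lower). The median change was -0.02 among the 392 and -0.01 among all probes. This comparison shares its control pools with the previous one, so the values of both stand side by side and are not separate evidence.

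Chaserr had the smallest p here as well, at 1.00 above control on the high fat diet (limma adjusted p = 0.135) and 0.25 with normexp (adjusted p = 0.335), and the pool on the controls' slide was 0.74 above their mean. 1700018L02Rik, at the adenylate kinase gene Ak3, was at -0.89, -0.74 and -1.26 in the controls and at -0.14, -0.25 and -0.38 on the diet, with no overlap (0.71, SE 0.18, adjusted p = 0.189). With metformin it was at -0.78, -0.36 and -0.53, overlapping both groups. The pseudogene transcript 9030619P08Rik was at -1.37, -0.54 and -0.55 in the controls, at 0.32, -0.19 and 0.13 on the diet and at -0.42, -0.86 and -0.55 with metformin. Its high fat diet pools were the 3 highest of the 9, at 0.91 above control (SE 0.25, adjusted p = 0.204) and 0.63 above it without control replicate 1. Its difference between metformin and diet was -0.70 (SE 0.25, limma adjusted p = 0.664), also without a call.

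Lower on the diet, again without a call, was A830082N09Rik, which lies 1.5 kb from Rwdd1. It was at -2.83, -2.72 and -2.57 in the controls, at -3.46, -3.44 and -3.13 on the diet and at -3.32, -3.21 and -3.40 with metformin. All 6 pools on the high fat diet lay below all 3 controls (-0.64, SE 0.15, limma adjusted p = 0.168 for diet, and -0.60, adjusted p = 0.0858, for metformin against control). With normexp the differences were -0.22 and -0.11, and the probe was above background in all 3 controls, 1 of 3 diet pools and 2 of 3 metformin pools. The pseudogene Gm8234 also lay below the controls in all 6 pools, at -1.58, -1.54 and -1.43 in the controls, -2.06, -1.99 and -1.79 on the diet and -1.97, -2.06 and -2.03 with metformin (adjusted p = 0.244 and 0.0973). 4930525C09Rik was at -1.68, -1.83 and -1.84 in the controls and at -1.97, -3.68 and -3.17 on the diet, so that the pool on the controls' slide lay closest to them. The probe was above background in all 3 controls and 1 of 3 diet pools, and within the controls' slide the difference was -0.18. Over all pools it was -1.15 (adjusted p = 0.259), and -1.64 without high fat diet replicate 1 (adjusted p = 0.0303, range 0.0303 to 1). With that pool left out, 3 of the 392 probes were called, beside 296 of all 62036. 2210417A02Rik went from 1.80 ± 0.16 (SD, n = 3) to 1.34 ± 0.19, with 1.61 ± 0.09 under metformin (adjusted p = 0.268 for diet).

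**Figure D4:**
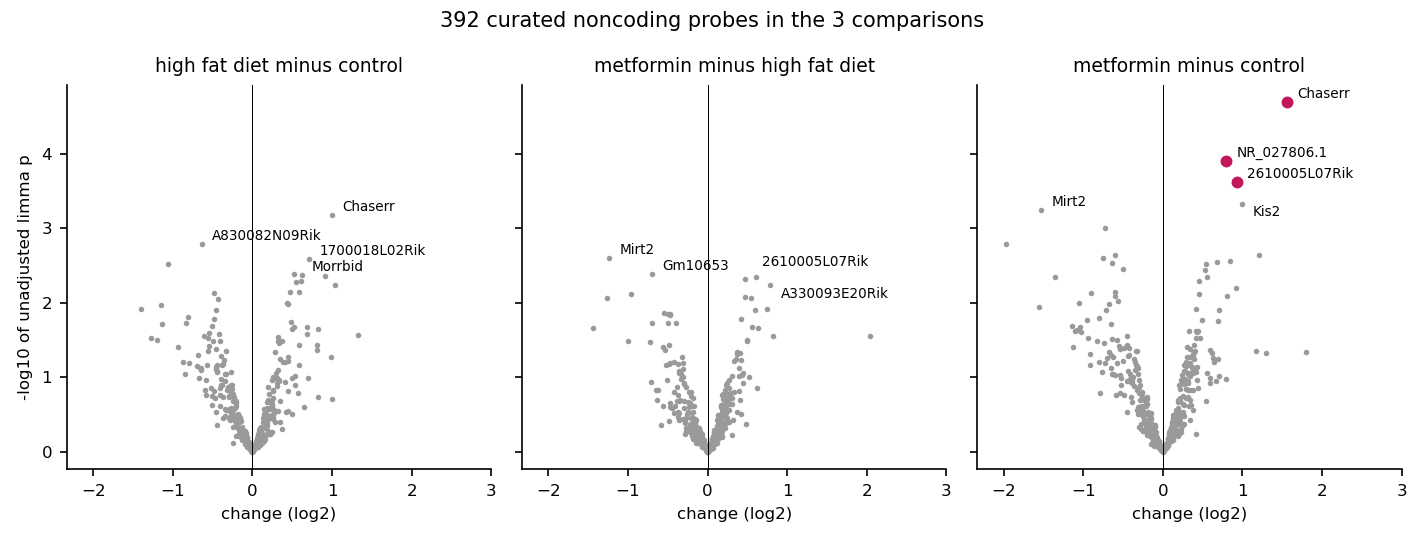
Change (horizontal, log2) against the -log10 of the unadjusted limma p (vertical) for the 392 probes in the 3 comparisons, each named above its panel; large coloured points passed the adjusted threshold of 0.05. The 3 that passed are Chaserr, NR_027806.1 and 2610005L07Rik in metformin minus control, and the other panels hold none.

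Metformin was set against the high fat diet with saline to see the drug's effect on mice kept on that diet. Limma called 0 of the 392 probes, beside 4 of all 62036 (0.00645%; 0.00484% higher and 0.00161% lower). Without adjustment, 34 had a p under 0.05 (8.67%), 17 higher and 17 lower, beside 6.64% of all probes (3.31% higher and 3.34% lower). Groups did not overlap for 54 probes (13.8%), 30 higher and 24 lower, beside 16.2% of all probes (8.04% higher and 8.15% lower). The median change was 0.01 among the 392 and 0.01 among all probes.

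Mirt2 had the smallest p, at -1.23 (SE 0.31, limma adjusted p = 0.514), -0.40 with normexp, and -1.06 within slide 2, which held 2 pools of each group. Gm10653, a transcribed pseudogene at Calml4 and Cln6, was at 3.96, 3.77 and 3.46 on the high fat diet and at 3.10, 3.04 and 2.96 with metformin, and its controls were at 3.51, 3.77 and 4.10. Its metformin pools were the 3 lowest of the 9, with a difference of -0.70 (SE 0.19, adjusted p = 0.566) and of -0.55 within slide 2. 2610005L07Rik was 0.61 higher with metformin than on the diet (SE 0.17, adjusted p = 0.566; 0.42 within slide 2), and Kis2 0.59 (SE 0.19, adjusted p = 0.647; 0.37 within slide 2). A330093E20Rik, at the potassium channel gene Kcnn2, was at -1.96, -2.20 and -2.55 on the diet against -1.41, -1.56 and -1.36 with metformin, and its controls of -2.02, -1.23 and -1.84 overlapped both groups (0.79, SE 0.22, adjusted p = 0.581). H2-Q5, a class I histocompatibility gene that the table lists as a transcribed pseudogene, was at 3.97, 4.19 and 4.26 on the diet and at 4.36, 4.85 and 4.85 with metformin (0.55, SE 0.17, adjusted p = 0.611). Its sequence is close to those of neighbouring class I genes, and probe sequences were not used here, so its signal may include theirs. A930006K02Rik (0.75), B930059L03Rik (-0.55) and Gm38426 (-0.47) had an adjusted p of 0.647 each, with no overlap of the groups.

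By pattern of detection, 7 of the 392 probes were above background on all 3 arrays of a group and on none of another. How many of all probes have this pattern was not counted. Each of the 7 entered the test through arrays where it was high. Besides Chaserr and Vmn2r29 they were 1700099I09Rik, Gm4251, 4932415M13Rik, Gm16701 and 9630001P10Rik. 1700099I09Rik, within the kinase gene Mast4 on the other strand, was at -5.32, -5.23 and -3.27 on the high fat diet and at -2.13, -2.51 and -3.07 with metformin, at least 2.54-fold higher (limma adjusted p = 0.698). Its control replicate 1, at -2.40, was as high as the metformin pools, while the other controls were at -5.38 and -5.33. Gm4251 was above background in every pool of the high fat diet and 0 controls, a difference of at least 1.57-fold (adjusted p = 0.424). Its groups overlapped all the same, with control replicate 1 at -3.05 and high fat diet replicate 1 at -3.31. The other 3 were above background in all controls and no metformin pool (adjusted p = 0.219 to 0.447). Levels of controls and metformin pools overlapped for 4932415M13Rik and Gm16701, and did not for 9630001P10Rik. 4932415M13Rik was at least 1.71-fold lower, and Gm16701 and 9630001P10Rik, whose own readings stood above the lowest level called, were at -0.63 and -0.83. With slide as a fixed block 9630001P10Rik was at 0.33 instead. With normexp all 7 changes were smaller, at 0.55 for Chaserr, -0.52 for Vmn2r29, 0.42 for 1700099I09Rik, 0.25 for Gm4251, -0.12 for 4932415M13Rik, -0.10 for Gm16701 and -0.14 for 9630001P10Rik.

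Grouped by what is known of them, the members of the list of cis-acting chromatin RNAs that had a probe above background were 4 of 7, and 1 of them, Chaserr, was called, in metformin against control alone, where 0.546% of all probes were. All 4 were higher than control in both high fat groups, as were 48.2% of all probes for the diet and 49.3% for metformin. Their median was 0.53 for the diet and 0.42 for metformin against control, beside medians of all probes of -0.01 in both. Chaserr was above background in 0 controls and Fendrr in 1, so they entered the test mainly through the high fat groups. The list was also chosen with earlier results of these data known, and a shift of the list was not tested. Morrbid, which restrains the death gene Bcl2l11 in myeloid cells, was at -1.02, -0.77 and -1.20 in the controls, at -0.35, -0.18 and -0.61 on the diet and at -0.81, -0.58 and -0.66 with metformin. The diet pools lay above the controls (0.62, SE 0.17, limma adjusted p = 0.204). The metformin pools overlapped both other groups (0.31 against control, adjusted p = 0.341). Carmn, a listed stellate cell marker known for the differentiation of smooth muscle, was at 0.39, 0.70 and 0.40, at 0.87, 1.01 and 0.92, and at 1.09, 1.02 and 0.95 in control, diet and metformin pools. All 6 high fat pools exceeded the controls (0.44, adjusted p = 0.252 and 0.52, adjusted p = 0.098). It was the only one of 6 stellate markers with a named probe, and more stellate cells and more RNA per cell cannot be told apart in whole liver. Fendrr, which lies 1.28 kb from Foxf1 and is needed in embryonic mesoderm, was at -3.06 ± 0.04 (SD, n = 3), -2.68 ± 0.26 and -2.77 ± 0.26, close to background (adjusted p = 0.45 for the diet).

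All 5 transcripts of the liver and metabolism list with a probe were above background on all 9 arrays, and 0 of 5 were called in any comparison. Gm15441, which overlaps the glucose-responsive gene Txnip and is known to restrain inflammation in liver, was at 2.56, 1.04 and 1.54 in the controls, at 1.67, 2.13 and 2.37 on the diet and at 1.22, 1.00 and 2.08 with metformin. Its pools spread widely within every group, and the groups overlapped (-0.63 for metformin against diet, SE 0.40, adjusted p = 0.835). The liver-enriched 0610005C13Rik, opposite Bcat2, which starts the breakdown of branched-chain amino acids, was at 4.73 ± 0.26 (SD, n = 3), 4.58 ± 0.12 and 4.40 ± 0.11 in control, diet and metformin pools (adjusted p = 0.301 for metformin against control). Gm10319, a transcribed pseudogene 50.7 kb from Mug2, was at 2.94 ± 0.12, 3.41 ± 0.09 and 3.48 ± 0.14, with all high fat pools above all controls (adjusted p = 0.229 for diet and 0.0942 for metformin against control). Gm10768, 0.47 kb from the bile transporter gene Abcc2 and known in hepatic glucose production, was at 2.21 ± 0.45, 1.65 ± 0.33 and 1.96 ± 0.11 (adjusted p = 0.399 for the diet). C730036E19Rik was at -0.90 ± 0.60, -0.08 ± 0.30 and -0.26 ± 0.37, and control replicate 1 was its lowest pool at -1.58. Its difference for the diet was 0.82 (adjusted p = 0.324) and 0.49 without that array.

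Of the other listed noncoding RNAs, which serve in RNA processing, stress responses and nuclear organisation, none passed in any comparison. Rpph1, the RNA of the enzyme that trims transfer RNA precursors, was at 6.54 ± 0.22 (SD, n = 3), 6.61 ± 0.16 and 6.81 ± 0.09 in control, diet and metformin pools. Norad, a cytoplasmic RNA that binds Pumilio proteins, was at 3.54 ± 0.13, 3.48 ± 0.17 and 3.39 ± 0.04. Lncpint was at 2.54 ± 0.30, 2.34 ± 0.13 and 2.61 ± 0.05, and Trp53cor1, another p53-induced RNA near Cdkn1a, at -0.35 ± 0.06, -0.37 ± 0.26 and -0.48 ± 0.08. Tunar, known from stem cells and brain, was at -1.94 ± 0.21, -2.40 ± 0.37 and -2.51 ± 0.32. The nuclear RNA Firre was at -1.18 ± 0.27, -1.24 ± 0.22 and -1.26 ± 0.0045, and the small Cajal body RNA Scarna13 at -2.13 ± 0.39, -2.42 ± 0.39 and -2.38 ± 0.17. Of the p53 and growth arrest list Crnde, Hotair and Hottip were not above background on 3 arrays, nor was Tsix of the X inactivation list.

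**Figure D5:**
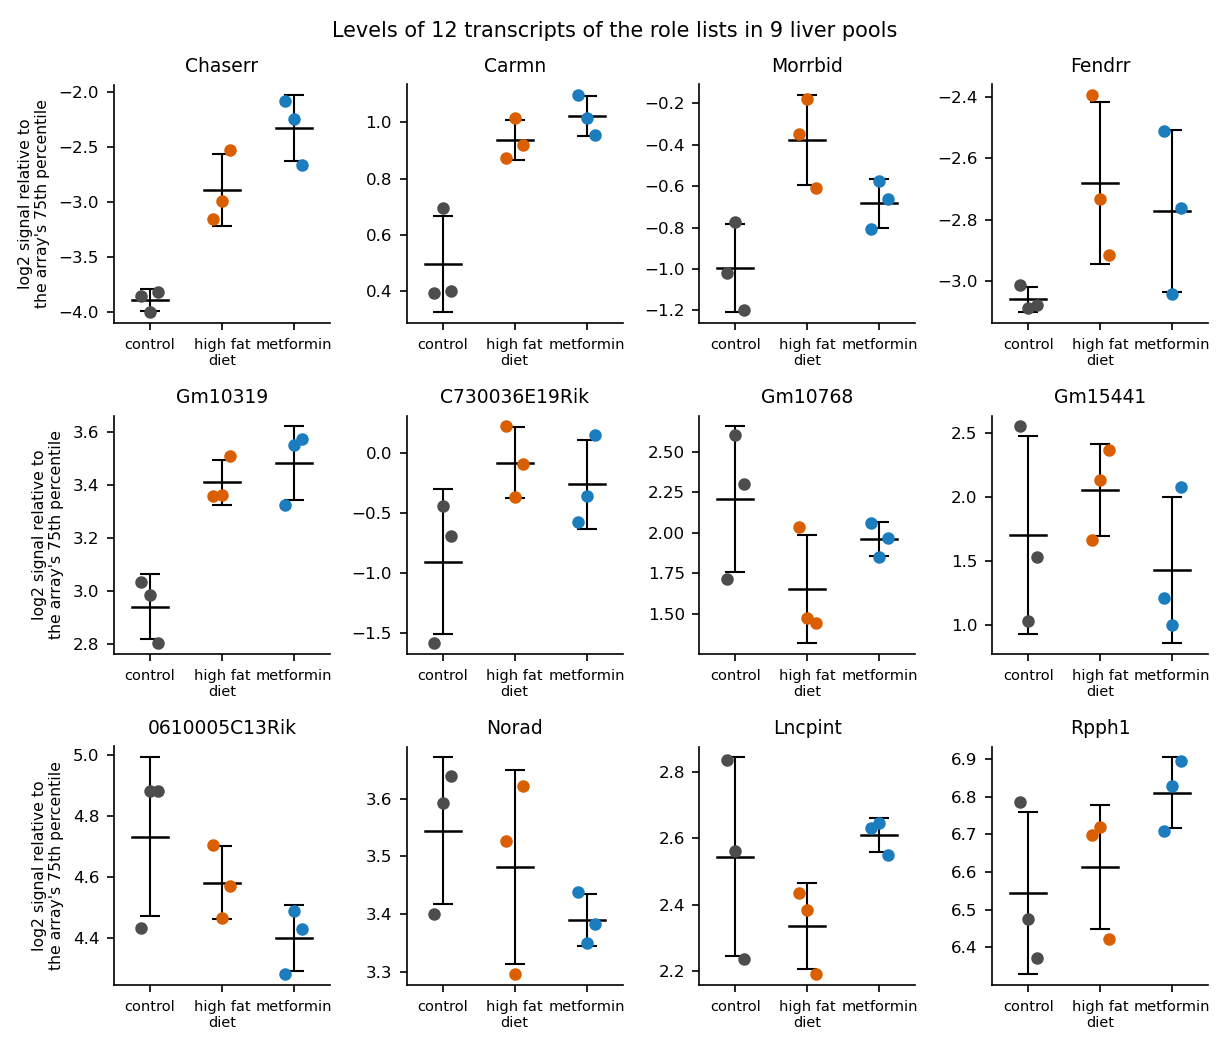
Levels of 12 transcripts of the lists by role in each pool (vertical axis, log2 processed signal minus the 75th percentile of its array; points, with the group mean as a line and the SD as bars, n = 3), on a vertical axis of its own in each panel. Carmn and Gm10319 are higher in all 6 high fat pools than in all 3 controls, Gm15441 overlaps between all groups, and Rpph1 and Norad range over less than 1 log2 unit.

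Apart from Kis2, whose hairpins lie downstream of it, 6 of the genes contain a microRNA hairpin on their own strand, and none was called. Aopep, an aminopeptidase gene with a noncoding variant, spans the hairpins of miR-23b, miR-27b and miR-24-1, and was at 2.60 ± 0.15 (SD, n = 3), 2.62 ± 0.04 and 2.55 ± 0.23 in control, diet and metformin pools. E130102H24Rik, with miR-101a, was at 2.93 ± 0.07, 2.88 ± 0.19 and 2.93 ± 0.20. Dleu2, the host of miR-16-1, was at -1.96 ± 0.64, -1.63 ± 0.14 and -1.78 ± 0.25, with control replicate 1 lowest at -2.69. Ftx of the X inactivation centre, with miR-421 and miR-374b, was at -1.03 ± 0.37, -0.79 ± 0.13 and -0.84 ± 0.10. Gm38431, with miR-7082, was at 2.87 ± 0.59, 2.95 ± 0.16 and 2.42 ± 0.10, and its metformin pools lay below all diet pools. 5430402O13Rik, with miR-6371, was at -0.96 ± 0.25, -1.17 ± 0.12 and -1.15 ± 0.24. Their adjusted p-values over the 3 comparisons were 0.377 to 0.992.

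Of the 13 genes with more than 1 tested probe, the probes had the same sign for 4 in high fat diet against control and for 9 in each of the other comparisons. A change read from a single probe therefore need not hold for every transcript of its gene. Over the 3 groups at once, limma's F test called 0 of the 392 probes, beside 77 of all probes (0.124%), and the smallest adjusted p was that of Chaserr (0.0533).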

How the data were processed

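Per the labels, liver RNA was labelled with Cy3 and hybridised to single-colour arrays. The authors extracted spot signals with Agilent Feature Extraction, version 10.7 per the submitters' processing notes (the file headers name another version). The deposited processed signal is an intensity, already background-subtracted per the file headers. The deposited value table holds log2 values. Once a constant per array was removed, they equalled log2 of that intensity within 0.01 for all tested probes. That comparison cannot tell which constant the authors subtracted. The table's column medians over the tested probes were -0.70 to -0.65.

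Spots with an outlier mark were removed and spots of a probe averaged as log2, and the array's 75th percentile was subtracted. Probes entered the test when, on 3 or more of 9 arrays, a share of 0.5 or more of their spots was marked as above background, which left 62036 of 97836 probes. The test was limma 3.58.1 (R 4.3.3), fitted to all 9 arrays with a mean per group (6 residual and 3.75 prior degrees of freedom), with Benjamini-Hochberg adjustment over all tested probes at 0.05. A two-sided exact permutation test of 3 arrays against 3 cannot go below 0.1. The brightest tested probe stood for a gene. The fit was tested on simulated data with independent noise, no slide effect and changes planted in the metformin group alone. That test cannot show how the fit behaves where slide moves with group. The number of arrays limits the precision.

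Names come from the GRCm38.p6 RefSeq table, whose positions served for neighbours and distances only. The headers name mm9. Promoters and microRNAs come from RefSeq tables. Named genes were, per comparison, called genes, or the 4 higher and 4 lower with the smallest p whose groups did not overlap, and besides these the members of lists by role, those above background on all arrays of a group and none of another (up to 8), and the 6 with the smallest F test p. The microRNA hosts were added after their loci were seen. The members and lists were chosen with earlier results of these data known. Normexp was run on the median spot signal, as the mean signal was not used here.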

Additional observations from a re-analysis of the deposited data

How the results depend on the processing

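The counts of called probes moved with the processing. Of 54 differences given for single transcripts, 53 kept their sign in every alternative run, and 17 passed the threshold in at least 1. The exception was 9630001P10Rik in metformin against control, at 0.33 with slide as a fixed block. Many of these transcripts were named because their groups did not overlap in these same arrays. Leaving out an array cannot turn the sign of such a difference, so the kept signs were partly fixed by the choice. Among the 392 noncoding probes, metformin against control gave 1 call with no filter on dim probes, 5 with normexp, 5 with only the 6 arrays compared, 0 with slide as a fixed block and 50 with slide as a random block. The random block had a correlation within slides of -0.168, below 0, and its counts rest on that. Leaving out each array in turn gave 0 to 20 there, 0 to 3 for high fat diet against control (3 without high fat diet replicate 1) and 0 for metformin against high fat diet. Chaserr passed in 10 of 17 alternatives, 2610005L07Rik in 8 of 18 and NR_027806.1 in 6 of 17.

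Over all probes, the counts for high fat diet against control, metformin against high fat diet, metformin against control and the F test were 12, 2, 96 and 35 without the filter and 64, 7, 594 and 205 with normexp. With slide as a fixed block they were 2, 0, 0 and 0, and with slide as a random block 202 for the diet, 8243 for metformin against control and 4689 for the F test. With only the 6 arrays compared they were 0 for metformin against high fat diet and 602 for metformin against control. Probes above background on all 9 arrays gave 638 for metformin against control. Leaving out each array in turn gave 0 to 296, 0 to 4, 2 to 2711 and 0 to 347 in the order above. For Chaserr, dim in the controls, normexp moved the change from 1.56 to 0.55, and for 2610005L07Rik, above background on all 9 arrays, from 0.93 to 0.87. The causes of these moves were not tested.

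The replicate numbers did not pair the pools: the deviations of pools with the same number correlated at -0.0939 to 0.128. With the replicate block, limma called 0, 0, 79 and 8 of all probes in the order above and 1 of the 392 probes in metformin against control, which was none of the 3 called without it. Chaserr then had an adjusted p of 0.0569, and 2610005L07Rik and NR_027806.1 of 0.0594 each.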
